A study of Mus musculus with 16 samples.

Results

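The regions described here had an ATAC-seq peak in both PWK samples and in none of the other 14 samples of the series. ATAC-seq uses a transposase that inserts sequencing adapters into open chromatin, so that accessible DNA collects reads. Pancreatic islets of 8 inbred mouse strains were profiled, with 1 female and 1 male sample per strain and 50 islets of average size per sample. The strains carry the labels 129S1_SvImJ (129), A_J (AJ), C57BL/6J (B6), CAST_EiJ (CAST), NOD_ShiLtJ (NOD), NZO_HlLtJ (NZO), PWK_PhJ (PWK) and WSB_EiJ (WSB), and per the study CAST, PWK and WSB are wild-derived. No treatment or age is given in the labels, and PWK is represented by these 2 samples alone. The peaks of the 16 sample lists on chromosomes 1 to 19 were merged where they shared at least 1 base, which gave 358621 regions. The 3218 members were selected on their peak calls, so the calls and signals of the PWK samples in them are a description and carry no test.

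The authors aligned the reads to individualized genomes and to mm10, which is the genome of B6. Per the study the difference was no larger than small changes of alignment settings would give, and the mm10 alignment was used. A strain that differs from B6 by variants, by lost segments or by extra copies of a segment is thus read through the B6 sequence. Where several copies of a sequence exist, an aligner places a read at any of them or at the closest one, and the number of copies in the strain adds to the height of the signal there. PWK descends from Mus musculus musculus, a subspecies other than the one from which most of the B6 genome comes.

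The windows of 200 bases (mm10, plus strand) around the summits of some of the members with the highest signal are shown, followed by the Nlrp10 and Tdrd3 windows, those of the strongest members that hold a forkhead site and a YY1 motif. The first resembled mitochondrial DNA, and its capitals mark the part that aligned to the mitochondrial genome of the reference. In the next 2 and in the Atp11b window, capitals mark a word of 12 bases that recurred at least 3 times in the window. In the others, capitals mark matches to the searched motifs, and the Ttc29 window held none of them.
Gm12155 start (chr11:44387124-44387323): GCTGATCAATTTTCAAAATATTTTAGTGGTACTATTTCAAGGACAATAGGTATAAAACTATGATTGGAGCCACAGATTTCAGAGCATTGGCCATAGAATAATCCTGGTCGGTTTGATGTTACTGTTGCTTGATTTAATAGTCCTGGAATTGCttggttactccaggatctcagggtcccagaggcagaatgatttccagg
Nup107 intron (chr10:117769373-117769572): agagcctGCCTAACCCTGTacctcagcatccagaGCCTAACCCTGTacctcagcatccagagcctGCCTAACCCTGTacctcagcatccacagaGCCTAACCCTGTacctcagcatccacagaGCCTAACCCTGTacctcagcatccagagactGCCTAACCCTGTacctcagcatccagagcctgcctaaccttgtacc
Agfg1 exon (chr1:82875385-82875584): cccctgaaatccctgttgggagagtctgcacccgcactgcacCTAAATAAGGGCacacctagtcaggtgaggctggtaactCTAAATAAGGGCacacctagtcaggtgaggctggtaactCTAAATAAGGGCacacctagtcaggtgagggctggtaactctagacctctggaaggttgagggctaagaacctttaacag
Ttc29 intron (chr8:78321737-78321936): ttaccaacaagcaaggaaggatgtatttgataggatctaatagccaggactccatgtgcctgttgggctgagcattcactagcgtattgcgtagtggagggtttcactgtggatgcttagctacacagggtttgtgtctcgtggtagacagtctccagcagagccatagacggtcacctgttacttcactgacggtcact
Atp11b, intergenic (chr3:35680457-35680656): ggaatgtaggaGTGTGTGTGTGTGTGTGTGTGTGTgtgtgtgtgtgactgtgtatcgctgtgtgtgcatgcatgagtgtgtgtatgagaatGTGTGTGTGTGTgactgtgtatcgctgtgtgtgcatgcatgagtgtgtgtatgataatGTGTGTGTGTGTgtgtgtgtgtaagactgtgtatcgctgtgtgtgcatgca
Myo10, intergenic (chr15:25598417-25598616): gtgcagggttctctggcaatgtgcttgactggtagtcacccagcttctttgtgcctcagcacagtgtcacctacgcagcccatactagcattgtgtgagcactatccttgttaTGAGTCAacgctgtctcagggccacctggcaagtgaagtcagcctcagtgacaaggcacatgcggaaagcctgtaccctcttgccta
Nlrp10, intergenic (chr7:108920346-108920545): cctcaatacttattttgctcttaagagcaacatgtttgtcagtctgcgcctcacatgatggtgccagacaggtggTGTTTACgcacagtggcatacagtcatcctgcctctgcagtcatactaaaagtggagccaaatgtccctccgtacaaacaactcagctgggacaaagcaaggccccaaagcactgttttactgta
Tdrd3, intergenic (chr14:87608457-87608656): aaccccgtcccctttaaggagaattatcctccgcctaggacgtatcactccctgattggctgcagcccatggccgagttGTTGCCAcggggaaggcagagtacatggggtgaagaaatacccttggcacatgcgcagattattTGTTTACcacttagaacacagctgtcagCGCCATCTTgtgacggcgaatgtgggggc

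The signal of a peak was the whole-number value at its summit, as deposited. Scaled signal was this value divided by the median of the sample over the 40930 shared regions, those called in all 16 samples, so that 1 is the level of a typical shared region. That median was 62 in the PWK female and 32 in the PWK male, the lowest of the 16 samples, and it reached 136 in the CAST male. The PWK male list held 145886 peaks on these chromosomes with a median summit of 10, also the lowest. The PWK female list held 121407 peaks with a median summit of 23, and the lists of all samples held 77887 to 167051. The lists hold no read totals, and no counting interval was derived for these values. Among the islet endocrine marker genes, 10 of 12 had a promoter peak in both PWK samples, and the summed promoter signal was 29.9 in the female and 33.2 in the male against 25.6 to 37.2 in the other samples. The Ppy promoter had no peak in any sample, and the Sst promoter had one in the PWK female alone. Of the 10 acinar markers 2 had a peak in both PWK samples, with sums of 1.03 and 1.47 against 0.395 to 3 in the others, and Cel, Pnlip, Ctrb1 and Ptf1a had none in any sample. Duct genes (3 of 6 with a peak in both) summed to 2.19 and 2.41 against 1.55 to 5, and endothelial genes (1 of 6) to 2.27 and 2.41 against 1.56 to 3.54. Leukocyte genes (2 of 8) summed to 0.79 in the female and 0.406 in the male against 0.104 to 2.11, with Cd3e and Cd79a at 0 in every sample. Mesenchymal genes (2 of 6) summed to 2.48 and 2.16 against 1.17 to 2.63, and Pdgfrb had no peak in any sample.

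The 3218 regions were 0.897% of all merged regions. By the same rule 6279 regions were called only in CAST, 3541 only in WSB, 1125 only in NZO, 381 only in B6, 233 only in NOD, 214 only in AJ and 187 only in 129. Of the 80646 regions with a peak in both PWK samples, 3.99% had no peak elsewhere and 50.8% had one in all the other samples. A further 9184 regions were called in the PWK female alone and 40993 in the PWK male alone. The members had a median width of 279 bases and a range of 12 to 21443 bases. The median was 200 bases over all regions, in regions called only in CAST and in those called only in WSB, and 1144 in shared regions. Of the members 31.9% were exactly 200 bases wide, which is the bin of the peak caller, against 40.8% of all regions.

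Most members were weak. In the PWK female the summit signal ran from 1 to 2040 with a median of 14, and in the PWK male from 1 to 1842 with a median of 10. The median scaled signal was 0.226 in the female and 0.313 in the male, well under the level of a typical shared region. The scaled signal exceeded 1 in 57 members in the female, in 102 in the male and in 35 in both. The median −log10 p-value of the members was 1.39 in the female and 1.84 in the male, against 3.59 and 1.8 over the whole lists. Signals of the female and the male rose together, with a Pearson r of 0.60 on log2(signal + 1) and a Spearman rho of 0.48 across members, which are not independent replicates. In scaled signal the 2 samples were within 2-fold of each other in 74.0% of members. The scaled signal was higher in the male in 2426 members and higher in the female in 791. Before scaling the median went the other way, at 14 in the female and 10 in the male.

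**Figure D1:**
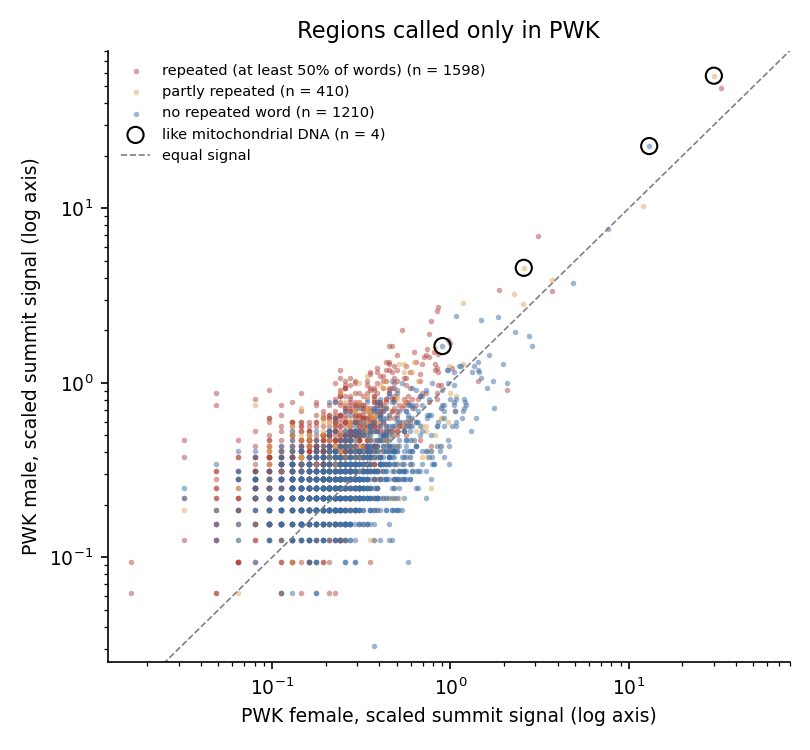
Scaled summit signal of the 3218 members in the PWK female (x axis) and the PWK male (y axis), both on log axes, where 1 is the median of the sample over regions called in all samples. Points are coloured by the share of 31-base words in the summit window that occur more than once in the genome, within the window or elsewhere. Circles mark the 4 members like mitochondrial DNA, and most members lie below 1 in both samples while a few exceed 10.

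The authors also deposited 1 list per strain with an irreproducible discovery rate (IDR), a measure of whether a peak ranks alike in the female and the male. All 3218 members overlapped a peak of the PWK strain list, and 348 of them (10.8%) one with an IDR of 0.05 or lower. No member overlapped a strain list of another strain. The strain lists were made from samples that the rule also used, so their overlap with the members is a description. That the members overlapped the PWK list and no other follows largely from the rule. The share of 10.8% was not computed for other regions called in PWK, so whether it is low for PWK is not known. The 348 had median scaled signals of 0.565 in the female and 0.688 in the male and a median width of 286 bases. Of them 133 (38.2%) lay in repeated sequence, as defined below, and 19.5% lay at a promoter.

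The 3 members and the 3 outside regions described here were picked for their weak peaks, so the closeness of their values follows from that choice. The weakest member by significance, a 200-base region in an exon 63577 bases from the nearest protein-coding start, of Acnat2 (chromosome 4, 49319800 to 49319999), had a summit signal of 8 in the female and 9 in the male, with −log10 p-values of 0.508 and 0.722. The next were near Itga8 (chromosome 2, 12109000 to 12109199; 7 and 2) and Ppp6c (chromosome 2, 39430600 to 39430799; 9 and 4). Outside the rule were 1628 regions with a peak in both PWK samples and in exactly 1 other sample. That other sample was most often the WSB female (339 regions), the CAST female (338) or the CAST male (213), and least often the NOD female (20) or the AJ male (23). The 3 with the weakest other peak lay near Gm3685, where the 129 male had a summit of 15 beside 15 in the PWK female and 11 in the PWK male, near Arl4a, where the CAST male had 17 beside 7 and 9, and near Abi1, where the CAST male had 13 beside 14 and 6. The −log10 p-values of these 3 other peaks were 0.477, 0.479 and 0.48.

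Whether calls confined to PWK repeat in a sample not used to choose them was asked across the sexes. From the female samples alone, 15631 regions were called in the PWK female and in no other female. Of these 28.9% had a peak in the PWK male, whereas the males of the other strains had a peak in 0.825% (AJ) to 6.33% (CAST). From the male samples alone, 50303 regions were called in the PWK male and in no other male, and 10.2% of them had a peak in the PWK female against 0.753% (NOD) to 5.12% (WSB) in the other females. PWK ranked first of 8 both times (exact permutation test over the 8 samples, one-sided p = 0.13 each, the smallest p that this design allows). With the same number of peaks in every sample, 77887, the shares in PWK were 44.9% and 29.5%, and those in the other strains reached 7.04% (NZO) and 6.70% (129).

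**Figure D2:**
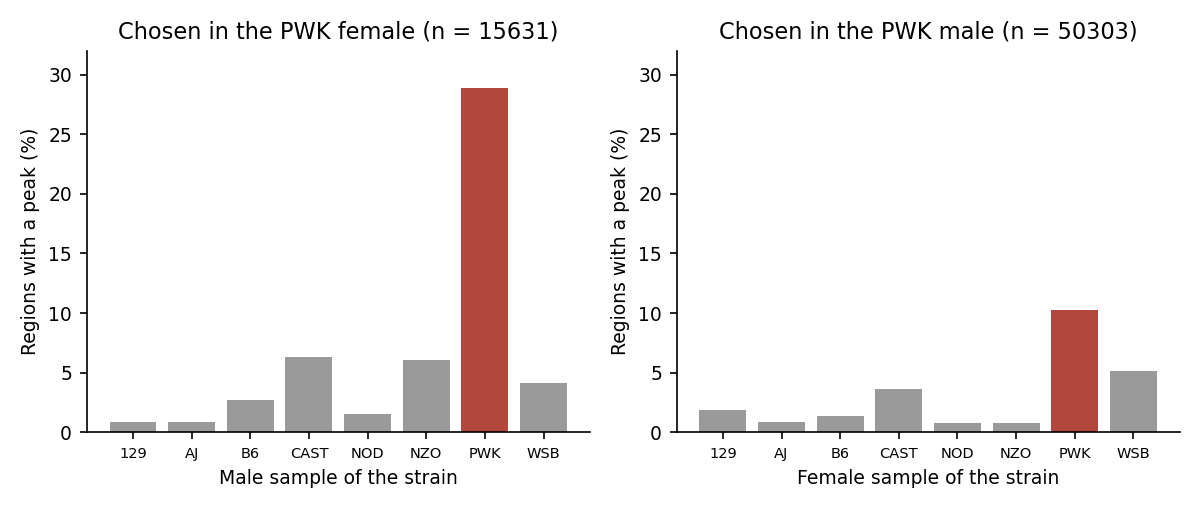
Share of regions (%) with a peak in each strain's sample of the sex not used for the choice, for regions called in the PWK female and no other female (left) and in the PWK male and no other male (right). Bars are single samples, with PWK in red at 28.9% and 10.2%, above every other strain on both sides.

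Sequence that occurs more than once in the genome was far more frequent among the members than in the compared sets. Every 31-base word of the 200-base summit window was counted in the mm10 chromosomes 1 to 19, X and Y. In 1598 members (49.7%) at least 50% of the words occurred more than once, and these are called repeated. In 1210 members (37.6%) no word was repeated, and 410 (12.7%) lay between. The repeated share was 24.1% in regions called only in CAST, 8.73% in regions called only in WSB and 2.38% in regions called in all 16 samples. Whether reads from other copies contributed to the calls was not tested. The copy number in mm10 also varied among the repeated members: the median count of a word was at most 10 in 560 of them, over 10 and up to 100 in 506, and over 100 in 532, all 532 of which were at least 50% masked as interspersed or simple repeats in the reference. In 507 repeated members less than 50% of the window was masked. Masking covered at least 50% of the window in 38.5% of all members, 23.5% of CAST regions, 10.9% of WSB regions and 2.24% of shared regions. A 12-base word recurring at least 3 times within the window was found in 5.50% of members, 3.58% of CAST regions, 1.95% of WSB regions and 0.985% of shared regions.

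In scaled signal, the gap between the PWK samples was wider in repeated members. Before scaling this was not so: the median summit of repeated members was 13 in the female and 11 in the male. That of members without a repeated word was 16 in the female and 9 in the male. The median scaled signal of repeated members was 0.210 in the PWK female and 0.344 in the PWK male. Members without a repeated word had 0.258 in the female and 0.281 in the male. A scaled signal above 1 was reached in the female by 8 repeated members (0.501%) and 40 unrepeated ones (3.31%), and in the male by 59 (3.69%) and 25 (2.07%). With 1 sample per sex, sex and sample cannot be told apart here.

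**Figure D3:**
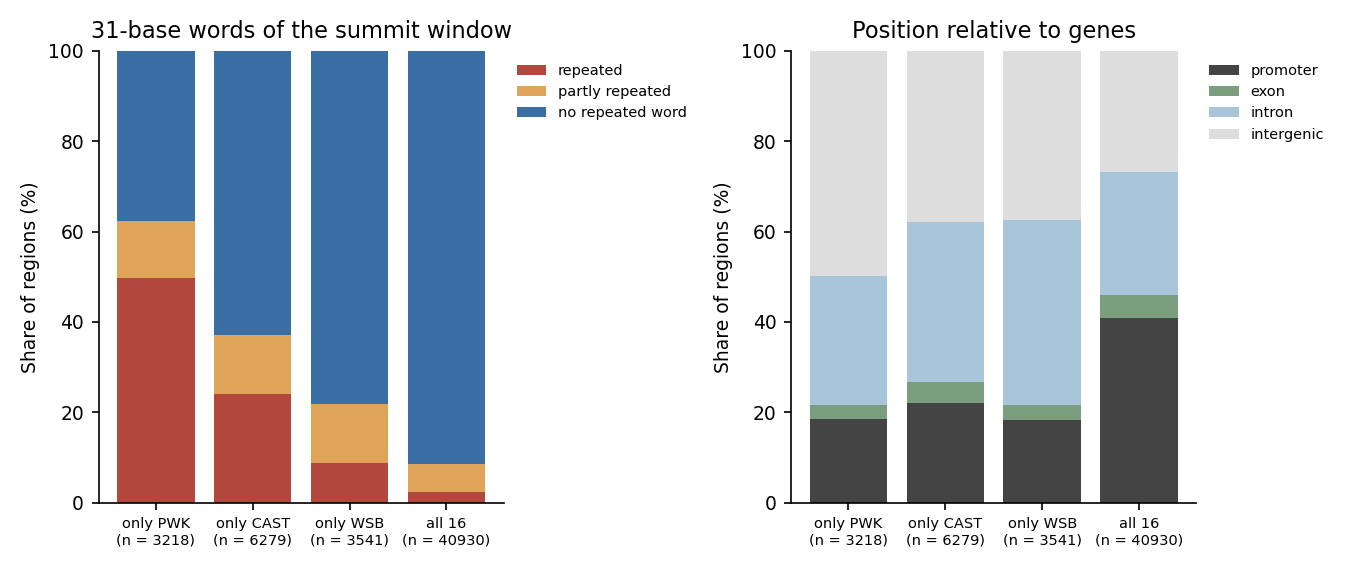
Shares (%) of regions called only in PWK, only in CAST, only in WSB and in all 16 samples by the 31-base words of their summit windows (left) and by position relative to GENCODE genes (right). The repeated part falls from 49.7% in PWK to 2.38% in shared regions, and the promoter part is 18.6% in PWK against 41.0% in shared regions.

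In position the members were mostly distal. A promoter, within 3 kb of a transcription start site (TSS), held 597 members (18.6%, 95% Wilson interval 17.2 to 19.9, which covers counting error only). Introns held 917 (28.5%), exons 97 (3.01%) and intergenic sequence 1607 (49.9%). Promoters held 22% of regions called only in CAST, 18.4% of those called only in WSB, 21.5% of all regions and 41.0% of shared regions. Intergenic sequence held 37.9% of CAST regions and 37.5% of WSB regions. Among members without a repeated word, 41.1% were intergenic, 39.4% intronic and 15.5% at a promoter, and among repeated members 57.9%, 20.0% and 20.0%. The nearest shared region lay a median of 28239 bases away, and 899 members (27.9%) had one within 10 kb. The median was 20103 bases for CAST regions, 32.8% of which had one within 10 kb. For WSB regions these values were 16906 bases and 36.2%. A region with a peak of another strain lay within 1 kb of 1094 members (34.0%) and touched the edge of 125.

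Base composition was close to that of all regions, while motif shares were close to it for some motifs and apart for others. The median GC content of the windows was 45.5%, the same as over all regions, against 50.0% in shared regions. Each of 16 short motifs was searched on both strands. The AP-1 site (TGANTCA), bound by FOS and JUN factors, was in 10.8% of members, 10.0% of CAST regions, 29.7% of WSB regions, 13.4% of shared regions and 15.5% of all regions. It was in 17.8% of members without a repeated word and in 5.32% of repeated ones. The forkhead site (TGTTTAC) of FOXA factors was in 4.85% of members against 4.94% of all regions, the TAATTA site of homeodomain factors such as PDX1 in 4.75% against 6.32%, and the NEUROD1 E-box (CAGATGG) in 6.22% against 6.22%. The CTCF core (AGGGGGC) was in 1.52% of members, 2.99% of CAST regions, 7.12% of shared regions and 2.78% of all regions. The ETS site (CCGGAAG) was in 0.715% of members, 0.956% of CAST regions, 4.63% of shared regions and 1.28% of all regions.

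The YY1 motif (AAGATGGCG), whose factor binds both promoters and certain transposable elements, was in 63 members (1.96%), against 0.446% of CAST regions, 0.0847% of WSB regions, 0.557% of shared regions and 0.266% of all regions. Of the 63 members, 59 were repeated, with a median of 432 copies of a word, and 59 were at least 50% masked. The strongest of the 63 is the Tdrd3 window printed above, in which 100% of the words were repeated, with scaled signals of 0.839 in the female and 1.22 in the male. Among members without a repeated word, 1 held the motif. Among the other factors of endocrine cells, the site of NKX2-2 (TTAAGTG) was in 2.18% of members against 2.84% of all regions, that of MAF proteins (TGCTGAC) in 4.20% against 4.91%, and that of RFX factors (GTTGCCA) in 2.98% against 3.24%. The site of HNF1 (GTTAATNAT) was in 0.559% against 1.20%, that of HNF4 (CAAAGTCCA) in 0.373% against 0.383%, and that of the zinc fingers of the GATA group (AGATAAG) in 2.52% against 3.04%. Of sites common in promoters, that of SP and KLF factors (GGGGCGGGG) was in 0.0932% against 0.962%, that of NRF1 (GCGCATGCG) in 0.0311% against 0.136%, and the cyclic AMP response element (TGACGTCA) in 0.839% against 0.417%. Of the 27 members with the response element, 22 were repeated.

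The strongest member lay on chromosome 11 (44387173 to 44387272), 2 bases from the start of Gm12155. Its summit signal was 1862 in the PWK female and 1842 in the PWK male, which are scaled signals of 30.0 and 57.6. Its window aligned to mitochondrial DNA over 152 bases with 87.5% identity. The second, in an intron of Nup107, a component of the nuclear pore (chromosome 10, 117768797 to 117769641), had summits of 2040 and 1556 and scaled signals of 32.9 and 48.6. The word of 12 bases marked in its window recurred 6 times. An exonic region of Agfg1, an ArfGAP protein (chromosome 1, 82875418 to 82875564), had scaled signals of 12.0 and 10.4, and its marked word recurred 3 times. The Ttc29 intron region (chromosome 8, 78321535 to 78322746), in a gene of the sperm flagellum, was the strongest member with no repeated word and no resemblance to mitochondrial DNA, at 7.63 in both samples. The region near Atp11b, a phospholipid flippase (chromosome 3, 35680474 to 35680958), had 3.08 in the female and 6.91 in the male, and the region near Myo10, an unconventional myosin of filopodia (chromosome 15, 25598066 to 25598825), had 4.85 and 3.72.

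Windows like mitochondrial DNA were rare among members, at 4 of 3218 (0.124%), against 3 in CAST regions, none in WSB regions and 20 in shared regions (0.0489%). They nonetheless held 3 of the 20 highest members. Besides the Gm12155 region they were an intergenic region on chromosome 18 (3639033 to 3639157; scaled signals 13 and 22.8; 158 aligned bases at 91.8% identity), an intron of Mrc1, the macrophage mannose receptor (chromosome 2, 14313633 to 14313714; 2.58 and 4.56; 88.9% identity over 153 bases), and an intergenic region on chromosome 16 (62483895 to 62483935; 0.903 and 1.63; 78.9% identity over 109 bases). The authors removed reads that aligned to the mitochondrial genome of mm10, and whether mitochondrial reads contributed to these peaks was not tested.

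The 20 highest members had scaled signals of 1.08 to 32.9 in the female and 1.63 to 57.6 in the male, and all 20 passed the IDR of 0.05. Introns held 10 of them, intergenic sequence 6, exons 2 and promoters 2. No repeated word was found in 9 of the 20, and 4 were repeated. Among the others of the 20 without a repeated word were an exonic region of the cadherin gene Cdh2 (2.77 and 1.84), an intron of the capping enzyme gene Rngtt (2.85 and 1.63), a region near Nlrp10 (2.31 and 1.97) and an intron of Nkain2 (1.48 and 2.28). An intronic region whose nearest protein-coding start was 96358 bases away, that of Cga, had 1.85 and 2.38. Introns of the cadherin gene Cdh18 (2.27 and 3.25) and of the vinculin gene Vcl (2.55 and 2.84) had a small share of repeated words, 18.2% and 8.24%.

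Of all members, 93 lay within 1 kb of a TSS of a protein-coding gene, at 91 genes, and 42 of the 93 were repeated. The highest was at the start of Rnf212, a factor of meiotic crossing over (chromosome 5, 108774777 to 108775274), with scaled signals of 1.08 in the female and 2.41 in the male. A region 270 bases from the start of Alcam, a cell adhesion molecule (chromosome 16, 52297194 to 52297512), had 1.74 and 1.03. The widest member, of 21443 bases, overlapped the start of Obox5, an oocyte homeobox gene (chromosome 7, 15741349 to 15762791), and had 0.661 and 1.03. The other 7 of the 10 highest were at Gcnt7 (1.08 and 0.594), Hook3 (0.548 and 1.16), Vav2, a guanine nucleotide exchange factor (0.758 and 0.781), the vomeronasal receptor gene Vmn1r226 (1.02 and 0.563), Mon2 (0.532 and 1), Mcm3ap (0.774 and 0.656) and Erich3 (0.452 and 0.875). Of these 10, 7 had no repeated word, and Vav2 was repeated.

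At most 3 genes of each islet gene list described here had a member. A member lay in the body or within 10 kb of a TSS of 1117 of 20780 protein-coding genes (5.38%), and a member without a repeated word at 606 (2.92%). Beside the 5.38%, the share was 4.55% of the beta cell factors, 15% of the hormone and granule genes and 12% of the diabetes genes. Beside the 2.92% for members without a repeated word, the shares were 0% of the beta cell factors, 10% of the hormone and granule genes and 8% of the diabetes genes. The median gene length was 115 kb in the diabetes list and 15.3 kb in the hormone and granule list. It was 19.4 kb in the list of beta cell factors, against 17.6 kb over all protein-coding genes. Of the 22 beta cell factors, 1 had a member, the zinc finger gene St18, in a repeated intronic window with summits of 15 in the female and 9 in the male. None of the 13 exocytosis genes had a member. Of the 20 hormone and granule genes, 3 had members. Pcsk1, a prohormone convertase, had an intronic one without a repeated word (chromosome 13, 75099000 to 75099199; 20 and 5). Ptprn2, a granule membrane protein, had an intronic pair, 1 without a repeated word (13 and 14) and 1 repeated (8 and 9). Scg5, a chaperone of a convertase, had one outside the gene (17 and 12). Of the 25 genes near diabetes association signals, 3 had members: Dgkb (23 and 20, repeated), Rbms1 (19 and 11) and Ptprd (3 members, the highest with 10 and 9). None of these members reached a scaled signal of 1, the highest values being 0.371 in the female and 0.625 in the male, both at Dgkb.

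Along the genome a part of the members was concentrated in few places. At least 1 member lay in 1304 windows of 1 Mb, and 685 of these windows held 1 member alone. Windows of 1 Mb with at least 10 members numbered 38, and they held 840 members (26.1%) but 3.14% of all regions. In these windows 85.2% of the members were repeated, against 37.1% elsewhere. The windows held 181 of the 6279 CAST regions and 64 of the 3541 WSB regions. The 5 windows with most members were on chromosome 13 (3000001 to 4000000, 70 members of which 43 were repeated), chromosome 2 (176000001 to 177000000, 56, all repeated), chromosome 7 (15000001 to 16000000, 50, 44 repeated), chromosome 14 (42000001 to 43000000, 45, all repeated) and chromosome 2 (175000001 to 176000000, 41, all repeated). The window on chromosome 7 holds 5 Obox genes. The windows on chromosome 2 hold 9 and 13 numbered Gm genes beside 2 and 4 Zfp genes, and the window on chromosome 14 holds 17 Gm genes. CAST and WSB regions in these 5 windows numbered 0 to 6 each. The windows were picked for their PWK members, so lower counts of CAST and WSB regions follow in part from that choice. Windows were not ranked by CAST or WSB regions, so whether those cluster in windows of their own is not known.

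The families of near-identical genes in these windows were looked up after the windows had been seen. Of the 22 Mup genes, which encode the major urinary proteins, 8 had a member nearby, as had 4 of 7 Obox genes, 3 of 10 Speer genes, 3 of 15 Cyp2c genes and 145 of 1231 numbered Gm genes (11.8%). At none of the Mup, Obox, Speer or Cyp2c genes was there a member without a repeated word. Large families were not alike, since 9 of 325 vomeronasal receptor genes (2.77%) and 22 of 1087 olfactory receptor genes (2.02%) had a member. The share of repeated words nonetheless varied within these families, from 7.06% in the window of the member at Obox5 to 100% in one of those at Cyp2c68, and values in windows of mostly repeated words are uncertain as to the copy.

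By chromosome, the members were most frequent on chromosome 14, with 391 or 18.9 per 1000 merged regions, of which 325 were repeated. Chromosomes 2 (12.5 per 1000) and 13 (12.2) followed. Chromosome 11 had the fewest, 39 or 3.56 per 1000, and 0.640 per 1000 without a repeated word, while chromosome 18 had the most of those, 6.82 per 1000. Regions called only in CAST went the other way on chromosome 11, where they reached 29.2 per 1000, their highest value. Beside this, the PWK male had 1.56% of its peaks on chromosome 11 and the PWK female 2.56%, against 2.45% to 4.49% in the other samples. On chromosome 14 the PWK samples had 6.31% and 5.87% of their peaks, against 4.53% to 5.64%. The part of these shares in the counts was not tested.

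**Figure D4:**
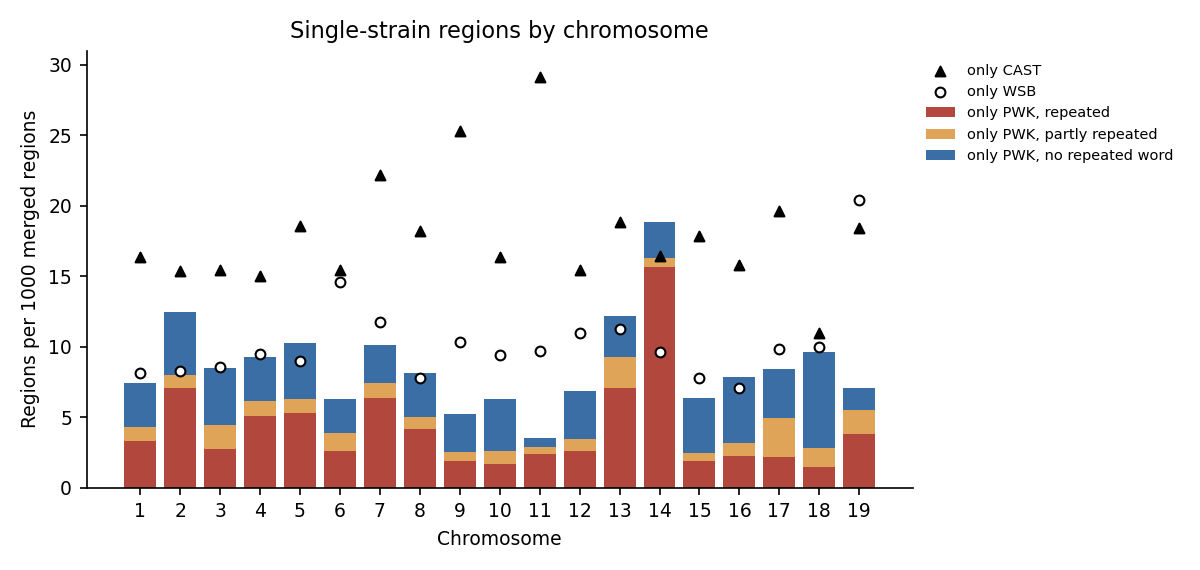
Regions per 1000 merged regions on each of chromosomes 1 to 19, with stacked bars for regions called only in PWK by repeated words, triangles for regions called only in CAST and open circles for regions called only in WSB. The PWK bar is highest on chromosome 14 at 18.9, mostly repeated, and lowest on chromosome 11 at 3.56.

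Regions called in all 16 samples give a measure in PWK that the choice of members did not use. Signal in the 40930 shared regions was compared between PWK and the mean of the other 7 strains with limma, with sex in the model. The error in this fit comes from the samples within strains, so differences among the other 7 strains do not enter it. At a Benjamini-Hochberg adjusted p under 0.05, 2180 shared regions (5.33%) were higher in PWK and 2352 (5.75%) were lower. Within 10 kb of a member lay 1050 shared regions, and of these 135 (12.9%) were higher and 50 (4.76%) lower. Near regions called only in CAST, 4.29% of the 2562 shared regions were higher in PWK and 6.01% lower, and near those called only in WSB 4.54% of 1673 were higher and 6.69% lower. Both PWK samples are in this fit and in the choice of members, so a sample that stands apart enters both. Without the PWK female 78 of the 1050 (7.43%) were higher, against 2.33% of all shared regions, and 22 were lower. Without the PWK male 90 (8.57%) were higher, against 2.41% of all, and 21 were lower. In both fits PWK is a single sample that is assumed to vary like the samples of the other strains. Without the NZO male 160 (15.2%) were higher, against 7.72% of all, and 80 were lower. Without centring of the samples, PWK lay lower by 0.80 (log2) in the median shared region, so the counts above are relative to the median of each sample. In that fit 43 of the 1050 (4.1%) were higher, against 0.581% of all shared regions, and 482 (45.9%) were lower, against 54.9% of all.

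The excess of higher shared regions went with repeated sequence. Of 976 shared regions in repeated windows, 29.2% were higher in PWK. Within 10 kb of a member 52 of 88 such regions (59.1%) were higher and 2 lower, and farther away 233 of 888 (26.2%) were higher. Of 885 shared regions near a member and without a repeated word, 67 (7.57%) were higher and 47 (5.31%) lower, against 4.51% and 5.66% of the 37384 shared regions without a repeated word. Outside the 38 dense windows 89 of 980 shared regions near a member (9.08%) were higher, against 5.14% of all shared regions there.

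The 10 shared regions near a member with the smallest p-values were all higher in PWK and lay in the gene clusters of chromosomes 14 and 2, and all had at least 65.9% of words repeated. The promoter region of Gm2974 (chromosome 14, 4178532 to 4184508), 1332 bases from a member, had scaled signals of 9.45 in the PWK female and 13.8 in the PWK male. The other 14 samples ran from 0.189 in the WSB female through a median of 0.532 to 3.07 in the 129 female, so both PWK samples lay above them. The limma log2 fold change there was 4.20 (SE 0.196, adjusted p = 8.7e-08). At the promoter of Gm14391 on chromosome 2 (175205419 to 175208320) the PWK samples had 31 and 27.9, against 2.17 in the 129 female to 13.7 in the CAST male with a median of 4.46 (log2 fold change 2.52, SE 0.188, adjusted p = 4.1e-06). At the promoter of Gm8206 on chromosome 14 (6035501 to 6037795) the groups overlapped, since the PWK samples had 14.2 and 17.9 and the 129 male 15.3, although the median of the others was 2.17 (3.02, SE 0.196, adjusted p = 1.7e-06). In 9 of these 10 regions both PWK samples lay above all the others. The remaining 7 were near Gm3095, Gm8108, Gm3727, Gm3298, Gm11007, Gm6710 and Gm14305, with log2 fold changes of 2.36 to 3.13.

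**Figure D5:**
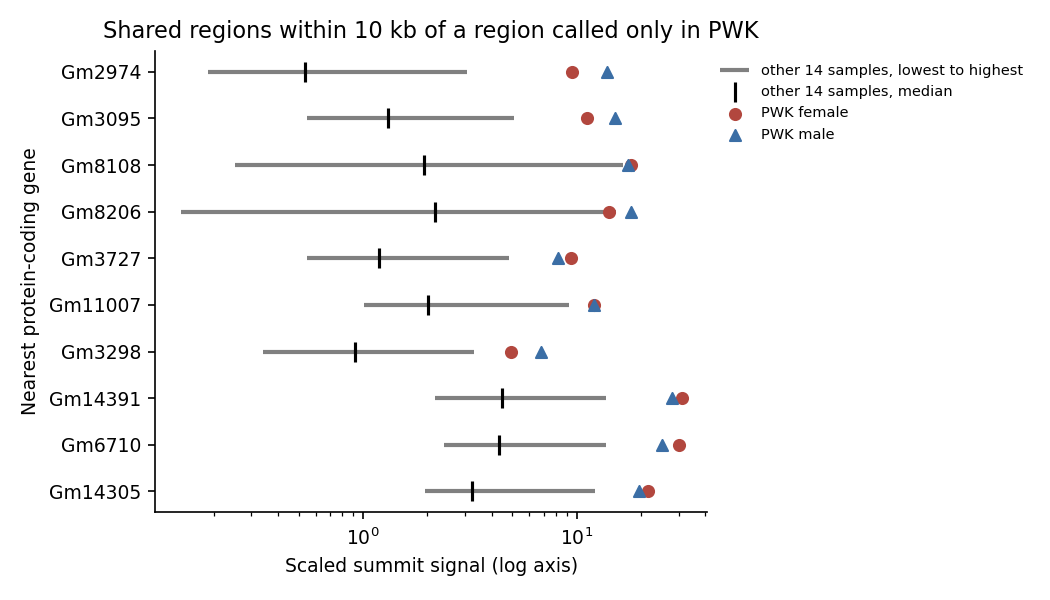
Scaled summit signal (log axis) in the PWK female (circles), the PWK male (triangles) and the other 14 samples (bar from lowest to highest, tick at the median) for the 10 shared regions within 10 kb of a member with the smallest limma p-values, each named by its nearest protein-coding gene. The PWK values lie above the bar in all but the Gm8206 region.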

How the data were processed

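ATAC-seq peak lists of 16 islet samples were used. The authors, per the labels and the study's methods, used cutadapt 2.0 for trimming and Bowtie2 2.3.4.1 for alignment to mm10, dropped mitochondrial and unmapped reads (SAMtools) and duplicates (Picard 2.9.2), and called peaks per sample in MOSAiCS (FDR 0.05). Neither a transposase shift nor a mapping quality filter was stated. In the deposited lists, the summit signal is a whole number without scaling for depth, the significance is a −log10 p-value, and the strain lists give the IDR on a −log10 scale. The deposited mean signal served as an alternative, since what it averages is not stated.

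Merging and annotation (GENCODE M21) used Python 3.11.15, and 31-base words were counted in mm10. Windows were aligned to mitochondrial DNA with BLAST 2.17.0 (E-value 1e-05). Values of log2(signal + 1), with the sample median subtracted, were fitted with limma 3.58.1 in R 4.3.3 (strain and sex in the model; tested on simulated data). Motif windows were 200 bases. Promoters lay within 3 kb of a TSS. Named members were the 20 highest by mean log2 scaled signal, the 10 highest within 1 kb of a protein-coding TSS, members at listed genes (some are not reported here), the 10 shared regions within 10 kb of a member with the smallest limma p, the 5 windows of 1 Mb with most members, and 3 regions on each side of the rule. The members and lists were chosen with earlier results of these data known. Each strain gave 1 sample per sex. The limma p-values measure the spread between the female and the male within strains, with sex in the model, and not the spread between strains.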

Additional observations from a re-analysis of the deposited data

Results flagged for a closer look

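Chromosome X lay outside the choice of members, and the same rule applied there gave 566 regions with a peak in both PWK samples and in no other, or 38.4 per 1000 of 14723 merged regions, against 8.97 per 1000 on chromosomes 1 to 19. The same rule gave 164 regions on chromosome X in CAST, 152 in NZO, 100 in WSB and 2 to 9 in the other 4 strains. Of the 566, 445 (78.6%) lay in 6 windows of 1 Mb, the first 3 of which (24000001 to 27000000) held 108, 129 and 150 and contain Slx and numbered Gm genes. A further window (55000001 to 56000000) held 30 and contains Slxl1. The PWK female had 5.00% of its peaks on chromosome X, against 3.05% in the PWK male and 2.98% to 4.76% in the other samples. In 4 groups of samples examined for a value far from the rest, none was found.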

How the results depend on the processing

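With the more significant 50% of the peaks of every sample the number of members was 2039, with that 50% in PWK alone 505, without members that had a peak of another strain within 1 kb 2124, and with an IDR of 0.05 or lower 348. Members without a repeated word, an alternative chosen after seeing the data, numbered 1210. It was 3385 where touching peaks were joined and 2290 with equal numbers of peaks. Leaving out 1 sample gave 3243 to 44567, the highest without the PWK female and 12774 without the PWK male, since the rule then rests on the other PWK sample alone. The promoter share was 20.2% with equal numbers of peaks, 7.18% within 1 kb of a TSS and 15.5% without a repeated word, and 14.9% to 19.3% without 1 sample, the lowest without the PWK male. The median scaled signal by mean signal was 0.335 in the female and 0.353 in the male. Relative to the whole list it was 0.609 in the female and 1 in the male.

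The main fit had 5.33% of the 40930 shared regions higher in PWK and 5.75% lower. A wider fit took the 66853 regions with a peak in 12 samples or more. There 2386 (3.57%) were higher and 4399 (6.58%) lower. The upper 50% of the shared regions by signal numbered 20465, with 971 (4.74%) higher and 1361 (6.65%) lower. Without centring 238 of the 40930 shared regions were higher and 22473 lower. Without 1 sample 953 to 3270 were higher and 1135 to 3450 lower, the lowest without a PWK sample and the highest without an NZO sample. Near members, the main fit had 12.9% of shared regions higher. Within 2 kb of a member 39 of 237 (16.5%) were higher and 15 lower, and within 50 kb 413 of 4219 (9.79%) and 211. In the upper 50% by signal 83 of 567 near members (14.6%) were higher, against 4.74% of all, and 27 were lower. In the wider fit 100 of 1050 (9.52%) were higher, against 3.57% of all, and 31 were lower. Near members without a repeated word 52 of 643 (8.09%) were higher and 28 (4.35%) lower. Without centring 43 of the 1050 shared regions near members were higher and 482 lower. Without 1 sample 78 to 177 were higher and 21 to 80 lower. By mean signal 8.76% of the shared regions near members were higher, against 3.86% of all. No further setting moved these counts beyond 1.5 times. Each strain has 1 sample per sex, so sex in the model is the only block, and with strain alone 2301 shared regions were higher and 2461 lower. Depth was not tested as a cause.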
